A study of Mus musculus with 12 samples.

Results

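The glycolysis and pentose phosphate genes are 33 mouse genes listed by symbol for their place in the pathway, by a rule that uses no measured value. They comprise the enzymes from glucose phosphorylation to enolase and the enzymes that set the level of fructose 2,6-bisphosphate. The lactate carriers Slc16a1 and Slc16a3 and the enzymes of the pentose phosphate pathway are also included. Galk1 and Pgm2 are listed as hexose entry genes. Of the 55450 rows of each deposited table, 34 carried these symbols, because Aldoa has 2 rows. Pyruvate kinase and lactate dehydrogenase are not among them.

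Glycolysis splits glucose into pyruvate in a chain of cytosolic steps, several of which can be run by alternative isoenzymes encoded by separate genes. Hexokinase and phosphofructokinase are its main regulated early steps, and fructose 2,6-bisphosphate, made and removed by the Pfkfb enzymes, is a strong activator of phosphofructokinase. The pentose phosphate pathway branches off at glucose 6-phosphate: its oxidative arm yields NADPH and ribulose 5-phosphate, and its non-oxidative arm exchanges pentoses with glycolytic intermediates. T cells are known to raise glucose use and lactate release when their antigen receptor is triggered.

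The data are polyadenylated RNA libraries of mouse CD4 T cells, 3 in each of 4 groups. Stimulated Pkm2 knockout cells (KO) and stimulated wild-type cells (WT) were kept for 24 h with human interleukin 7 (IL7, 25 ng/mL) on plate-bound anti-CD3 at 1 ug/mL and anti-CD28 at 2 ug/mL, antibodies that engage the T cell receptor complex and a costimulatory receptor. Resting KO and resting WT cells had IL7 alone. The series text calls the starting cells naive T cells of spleen and lymph nodes, while the sample labels say splenocytes and give the culture as overnight. The labels used here name neither strain nor age, neither the form of the knockout allele nor any promoter that drives a deletion, and leave it unsaid whether each library had its own animal. A p-value here reflects library-to-library spread alone, which could be technical.

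Library totals were 67333490 to 76891786 counts in the stimulated and 63266477 to 72128433 in the resting groups. Pkm, the targeted gene, whose row sums the M1 and M2 transcripts, had 1056, 1065 and 1036 CPM (counts scaled to a common library size by TMM) in stimulated KO cells, against 2483, 2450.4 and 2521 CPM in stimulated WT cells, and 172, 195 and 188 CPM in resting KO cells, against 424, 431 and 509 CPM in resting WT cells. The difference was −1.23 ± 0.03 (log2, SE; adjusted p = 1.36e-08, edgeR) in stimulated and −1.30 ± 0.08 (adjusted p = 0.00411, edgeR) in resting cells. The 8 CD4 T cell markers summed to 2272 ± 38.1 and 2262 ± 35.6 CPM in stimulated KO and WT cells, and to 3502 ± 188 and 3254 ± 363 CPM in resting KO and WT cells (SD, n = 3 each), with none of the 8 at 0. Markers of other blood cells were present and were higher at rest: the 8 myeloid markers summed to 26.5 to 30.4 CPM in stimulated KO, 10.8 to 20.8 in stimulated WT, 726 to 754 in resting KO and 784 to 1942 CPM in resting WT libraries. The 7 erythroid markers summed to 15.6 to 79.9 CPM in the 6 stimulated libraries and to 56.3 to 1503 CPM in the 6 resting libraries. In the 6 stimulated libraries the 4 Y-linked genes listed (Ddx3y, Eif2s3y, Kdm5d and Uty) had no counts and Xist had 941 to 1126 CPM, whereas the 6 resting libraries had 143 to 167 CPM of Ddx3y and 0.05 to 0.09 CPM of Xist. Stimulation, the sex-linked transcripts and the deposited table, 1 for each condition, therefore cannot be told apart in these libraries, and the members Pgk1 and G6pdx are X-linked. In bulk RNA, fewer cells of a type and less RNA per cell cannot be told apart.

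The members together took 1.12% ± 0.0153 of all counts in stimulated KO cells and 0.339% ± 0.00578 in resting KO cells, and 1.20% ± 0.0164 in stimulated WT cells and 0.352% ± 0.00662 in resting WT cells (SD, n = 3 each). Gapdh, which oxidises glyceraldehyde 3-phosphate, supplied 25.4% to 25.8% of the members' counts in the stimulated libraries and 14.8% to 15.5% in the resting libraries. Levels of different genes were compared as CPM per kilobase of exon, using the union of annotated exons. On that scale Gapdh was first in all 4 groups, at 775 ± 8.11 in stimulated KO, 838 ± 10.1 in stimulated WT, 109 ± 0.800 in resting KO and 117 ± 6.90 CPM per kb in resting WT cells. Pgk1, Aldoa, Pgam1, Eno1 and Tpi1 followed it in both stimulated groups, between 250.2 and 489 CPM per kb in KO and between 280.2 and 539.6 CPM per kb in WT cells. At rest the order below Gapdh was Aldoa, Eno1, Taldo1, Pgk1 and Gpi1 in both genotypes. Taldo1, the transaldolase of the non-oxidative pentose phosphate arm, was the fourth highest at rest and the 11th after stimulation. Using the longest annotated transcript as the length instead put Eno1 and Aldoa above Gapdh in the resting groups, while Gapdh stayed first in the stimulated groups.

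**Figure D1:**
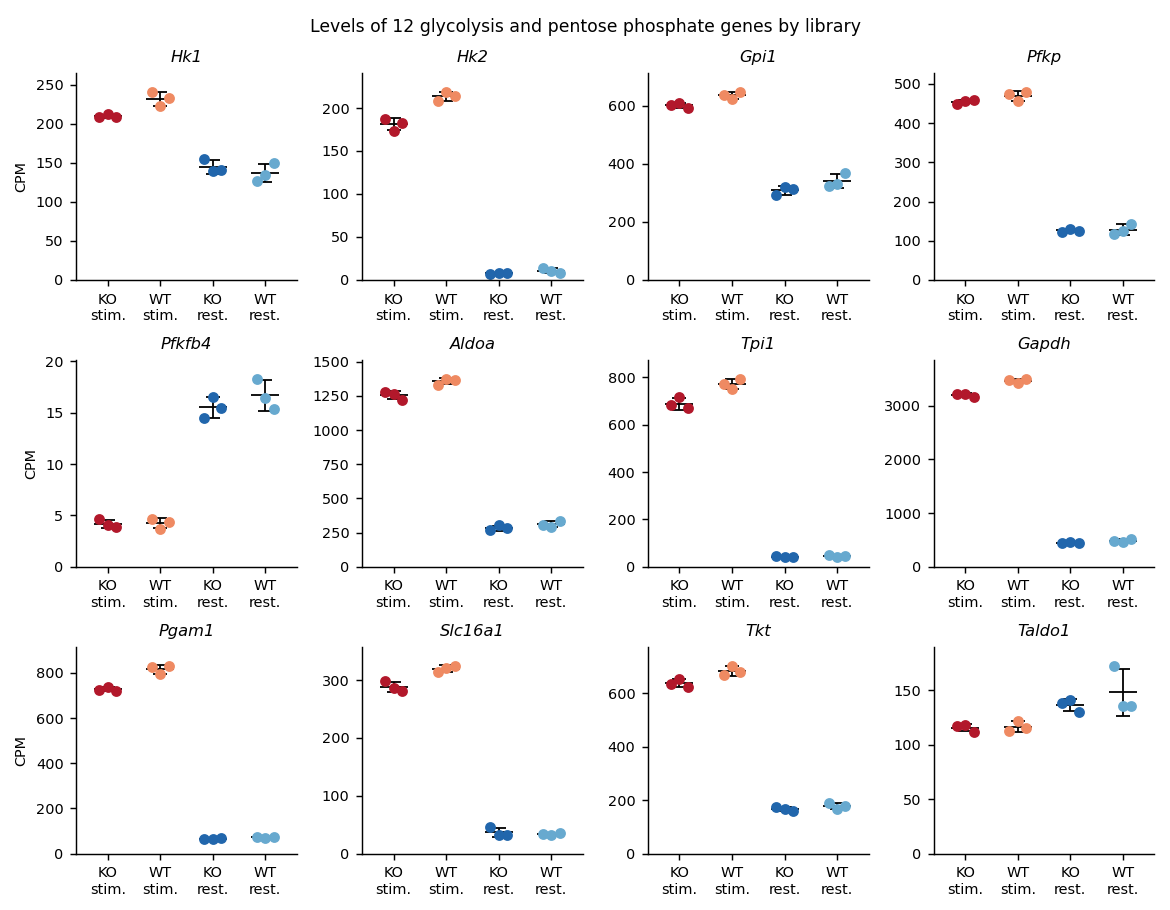
CPM of 12 glycolysis and pentose phosphate genes, 1 panel a gene in pathway order, with 1 point per library, a bar at the mean and whiskers of 1 SD (n = 3), for stimulated KO, stimulated WT, resting KO and resting WT cells. Of the 12 genes, Hk2 and Tpi1 show the largest fold rise from resting to stimulated cells, whereas Pfkfb4 and Taldo1 are lower after stimulation.

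Stimulation was set against rest within each genotype. Most of the pathway rose: in KO cells 24 of the 34 rows were called higher and 8 lower (edgeR adjusted p under 0.05), against 39.6% of 17460 tested genes higher and 43.2% lower. In WT cells 25 were called higher and 7 lower, against 39.3% and 44.8% of the tested genes. The median log2 fold change of the rows was 1.00 in KO and 0.97 in WT cells, beside −0.11 and −0.14 over all genes tested. All 34 rows passed the filter on low counts, the second Aldoa row only through its stimulated libraries, so that its place among the higher rows of both genotypes was fixed by the filter and counts for nothing. Without it the middle row was G6pdx in KO (log2 change 0.98) and Gpi1 in WT cells (0.91). Without scaling by TMM the median of all genes was −0.44 in KO and −0.47 in WT cells, 22 rows were higher and 8 lower in KO and 23 higher and 8 lower in WT cells, and the split over all genes became 5537 higher and 9110 lower in KO (main 6917 and 7550) and 5544 and 9351 in WT cells (main 6861 and 7821). The count of lower rows in KO cells was 5 without resting KO replicate 2 and 5 without stimulated KO replicate 3. Over all genes those fits called 7409 of 17865 and 7235 of 17921 lower.

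The hexokinases, which trap glucose as glucose 6-phosphate, changed in different directions. Hk2 (ENSMUSG00000000628.10, chr6:82725025-82774454, minus strand, mm10), the inducible isoenzyme, had 188, 173 and 182 CPM in stimulated KO cells, against 6.87, 8.35 and 7.91 CPM in resting KO cells, and 208, 219 and 214 CPM in stimulated WT cells, against 13.9, 9.98 and 7.98 CPM in resting WT cells. No stimulated library came near a resting one. The log2 change of Hk2 was 4.55 ± 0.18 in KO (adjusted p = 1.19e-09, edgeR) and 4.33 ± 0.17 in WT cells (adjusted p = 1.50e-09), or 23.5-fold and 20.1-fold. Hk1, the widely expressed isoenzyme, rose by a log2 change of 0.53 ± 0.06 in KO and 0.76 ± 0.06 in WT cells, to means of 209 and 232 CPM in stimulated KO and WT cells. Adpgk, which uses ADP in place of ATP, fell by 0.17 ± 0.04 in KO and by 0.18 ± 0.04 in WT cells.

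Hk3 (ENSMUSG00000025877.14, chr13:55005985-55021385, minus strand), a hexokinase known from myeloid cells, varied between libraries of a group. It had 4.48, 4.74 and 3.70 CPM in stimulated KO cells, against 9.05, 9.30 and 8.25 CPM in resting KO cells, and 1.54, 3.30 and 1.81 CPM in stimulated WT cells, against 29.4, 17.4 and 10.1 CPM in resting WT cells. In the same libraries the myeloid markers summed to 27.4, 30.4 and 26.5 CPM (stimulated KO), 726, 754 and 744 CPM (resting KO), 10.8, 20.8 and 13.96 CPM (stimulated WT) and 1942, 1109.6 and 784 CPM (resting WT). In both WT groups the library highest in Hk3 was also highest in these markers, and the part of myeloid RNA in the Hk3 values was not tested. The log2 change of Hk3 was −1.04 ± 0.37 in KO (adjusted p = 0.0255, edgeR) and −3.10 ± 0.40 in WT cells (adjusted p = 4.08e-05). In KO cells the call was lost without resting KO replicate 1 (adjusted p = 0.0552) or 2 (0.0568), without stimulated KO replicate 1 (0.0589) or 3 (0.0874), or without the filter on low counts (0.0560).

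**Figure D2:**
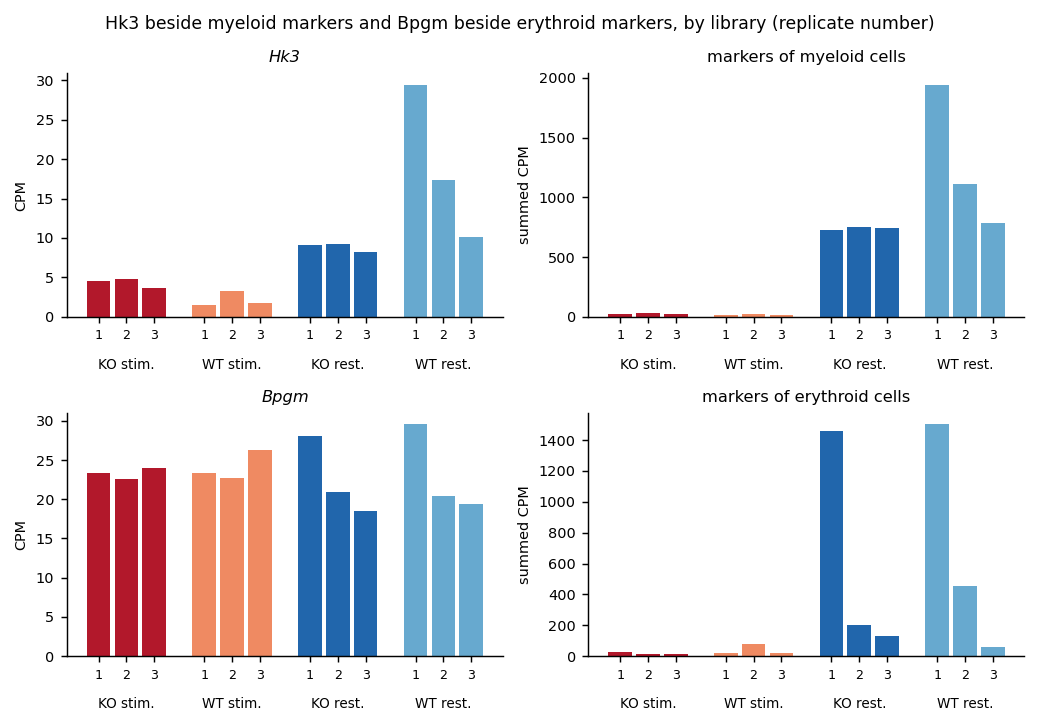
Hk3 beside the summed CPM of 8 myeloid markers, and Bpgm beside the summed CPM of 7 erythroid markers, as 1 bar per library (replicates 1 to 3) of stimulated KO, stimulated WT, resting KO and resting WT cells. Resting WT replicate 1 is highest in Hk3 (29.4 CPM) and in the myeloid sum (1942 CPM), and both replicate 1 libraries at rest are highest in Bpgm and in the erythroid sum of their group.

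Gpi1, the isomerase that makes fructose 6-phosphate, rose by a log2 change of 0.96 ± 0.06 in KO and 0.91 ± 0.06 in WT cells. Of the phosphofructokinases, Pfkl had 242, 251 and 227 CPM in stimulated KO cells, against 57.0, 56.7 and 56.8 CPM in resting KO cells, and 276, 258 and 274 CPM in stimulated WT cells, against 53.9, 55.9 and 60.8 CPM in resting WT cells. Pfkl rose by a log2 change of 2.08 ± 0.05 in KO (adjusted p = 1.50e-12, edgeR) and 2.24 ± 0.05 in WT cells (adjusted p = 7.06e-13). Pfkp, the platelet form, rose by 1.85 ± 0.06 in KO and 1.88 ± 0.06 in WT cells. Pfkm, the muscle form, had a log2 change of 0.13 ± 0.09 in KO (adjusted p = 0.167) and 0.30 ± 0.09 in WT cells (adjusted p = 0.00582, edgeR). In KO cells Pfkm was called without resting KO replicate 1 (adjusted p = 0.00763), and without TMM scaling its log2 change was −0.20 in KO and −0.03 in WT cells, so its direction depends on the scaling.

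The Pfkfb genes did not move together. Pfkfb4 (ENSMUSG00000025648.18, chr9:108991778-109032228, plus strand) had 4.63, 4.04 and 3.85 CPM in stimulated KO cells, against 14.5, 16.6 and 15.5 CPM in resting KO cells, and 4.70, 3.73 and 4.38 CPM in stimulated WT cells, against 18.3, 16.4 and 15.4 CPM in resting WT cells. Its log2 change was −1.90 ± 0.11 in KO (adjusted p = 2.84e-09, edgeR) and −1.97 ± 0.11 in WT cells (adjusted p = 1.84e-09), a 3.72-fold and a 3.91-fold fall. Pfkfb2 fell by 1.41 ± 0.09 in KO and by 1.25 ± 0.09 in WT cells. Pfkfb3, whose enzyme has a high kinase activity and so favours fructose 2,6-bisphosphate, rose by 0.63 ± 0.07 in KO and 0.54 ± 0.07 in WT cells. The summed level of the 3 genes was 14.9 ± 0.196 CPM per kb in stimulated KO and 14.1 ± 0.679 in resting KO cells, and 14.7 ± 0.968 in stimulated WT and 14.5 ± 0.384 in resting WT cells, the lowest sum of the 14 steps after stimulation.

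The main enzyme of every step from aldolase to enolase rose in both genotypes. Aldoa, the main aldolase, which splits fructose 1,6-bisphosphate, had 1276, 1264 and 1221 CPM in stimulated KO cells, against 267, 302 and 280.3 CPM in resting KO cells, and 1332, 1374 and 1366 CPM in stimulated WT cells, against 302, 293 and 335 CPM in resting WT cells. Aldoa rose by 2.15 ± 0.06 in KO and 2.13 ± 0.06 in WT cells. The second Aldoa row (ENSMUSG00000114515.2, chr7:126800790-126809108, mm10, minus strand) lies just upstream of the main one (ENSMUSG00000030695.16, chr7:126795234-126800751). It had 21, 24 and 13 counts in stimulated KO libraries, against 7, 1 and 2 in resting KO libraries, and 20, 17 and 32 counts in stimulated WT libraries, against 1, 1 and 3 in resting WT libraries. Its fitted log2 changes of 2.79 in KO and 3.90 in WT cells depend on the prior count and, since the row was admitted by its stimulated libraries, are given as a description. Aldoc, the brain aldolase, stayed at 1.32 to 2.45 CPM in the 12 libraries. It was called lower in KO cells (−0.41 ± 0.17, adjusted p = 0.0384, edgeR) but not in WT cells (−0.19 ± 0.17, adjusted p = 0.308), and the KO call was lost in 8 of the 12 fits that each left out 1 library (each of resting KO replicates 2 and 3, stimulated KO replicates 1 and 3, resting WT replicate 2 and the 3 stimulated WT libraries), with adjusted p up to 0.177. Without TMM scaling Aldoc was called lower in WT cells too (−0.53, adjusted p = 0.0098), and with TMM scaling the responses of KO and WT cells differed by −0.22 ± 0.24 (adjusted p = 0.693).

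Tpi1 (ENSMUSG00000023456.15, chr6:124810586-124814296, minus strand), which interconverts the triose phosphates, had 681, 717 and 668 CPM in stimulated KO cells, against 45.8, 39.4 and 40.7 CPM in resting KO cells, and 773, 749 and 793 CPM in stimulated WT cells, against 50.4, 43.4 and 45.1 CPM in resting WT cells. Its log2 change of 4.04 ± 0.08 in KO (adjusted p = 1.75e-13, edgeR) and 4.06 ± 0.08 in WT cells (adjusted p = 1.42e-13), or 16.4-fold and 16.7-fold, was the largest of the members after Hk2 in both genotypes. Per length, Tpi1 was the 10th member at rest and the sixth after stimulation. Gapdh had 3227, 3213 and 3163 CPM in stimulated KO cells, against 452, 455 and 448 CPM in resting KO cells, and 3472, 3418 and 3500.0 CPM in stimulated WT cells, against 473, 466 and 518 CPM in resting WT cells. Its log2 change was 2.83 ± 0.06 in KO (adjusted p = 2.50e-13, edgeR) and 2.83 ± 0.06 in WT cells (adjusted p = 1.80e-13).

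Pgk1, the first enzyme of the chain to make ATP, rose by a log2 change of 3.05 ± 0.07 in KO (adjusted p = 5.47e-13, edgeR) and 3.08 ± 0.07 in WT cells (adjusted p = 4.05e-13). Pgam1 (ENSMUSG00000011752.7, chr19:41911923-41918660, plus strand), which moves the phosphate of phosphoglycerate, had 724, 738 and 721 CPM in stimulated KO cells, against 62.9, 66.2 and 67.4 CPM in resting KO cells, and 825, 794 and 832 CPM in stimulated WT cells, against 72.6, 70.1 and 72.7 CPM in resting WT cells. Its log2 change was 3.47 ± 0.05 in KO (adjusted p = 4.60e-14, edgeR) and 3.51 ± 0.05 in WT cells (adjusted p = 2.78e-14). Bpgm, which makes the 2,3-bisphosphoglycerate of red cells, was not called: its log2 change was 0.05 ± 0.18 in KO (adjusted p = 0.794, edgeR) and 0.06 ± 0.18 in WT cells (adjusted p = 0.763). At rest it had 28.1, 20.9 and 18.5 CPM in KO and 29.6, 20.4 and 19.4 CPM in WT libraries, where the erythroid markers summed to 1456, 203 and 129.9 CPM in KO and 1503, 452 and 56.3 CPM in WT. The libraries of each genotype kept the same order for Bpgm and for the erythroid sum, and the part of erythroid RNA in Bpgm was not tested. Without replicate 1 of both resting groups Bpgm was called higher in KO (adjusted p = 0.00481, edgeR) and in WT cells (adjusted p = 0.00286).

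Eno1, the main enolase, had 1804, 1774 and 1731 CPM in stimulated KO cells, against 425, 481 and 453 CPM in resting KO cells, and 1931, 1960.3 and 1981 CPM in stimulated WT cells, against 415, 427 and 514 CPM in resting WT cells. Its log2 change was 1.97 ± 0.08 in KO (adjusted p = 7.18e-11, edgeR) and 2.11 ± 0.08 in WT cells (adjusted p = 3.37e-11). The neuronal enolase gene Eno2 rose by 1.27 ± 0.19 in KO and 1.03 ± 0.19 in WT cells but stayed under 5.4 CPM. The muscle enolase gene Eno3 fell by 0.33 ± 0.07 in KO and by 0.43 ± 0.07 in WT cells. The lactate carrier Slc16a1 (MCT1; ENSMUSG00000032902.1, chr3:104638668-104658462, plus strand) had 298, 286 and 281 CPM in stimulated KO cells, against 46.1, 32.6 and 31.9 CPM in resting KO cells, and 313, 321 and 325 CPM in stimulated WT cells, against 33.3, 32.9 and 35.0 CPM in resting WT cells. Resting KO replicate 1 stood above the other 5 resting libraries. The log2 change of Slc16a1 was 2.97 ± 0.12 in KO (adjusted p = 3.54e-10, edgeR) and 3.24 ± 0.12 in WT cells (adjusted p = 1.63e-10), and the carrier Slc16a3 (MCT4) rose by 2.85 ± 0.15 in KO and 2.82 ± 0.15 in WT cells.

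Of the 8 pentose phosphate genes 6 were higher and 2 lower in each genotype, with a median log2 change of 0.89 in KO and 0.86 in WT cells. The median was 1.56 and 1.45 over the 24 rows of glycolysis and lactate export, which include the second Aldoa row. Without that row the middle one was Eno2, at 1.27 in KO and 1.03 in WT cells. Tkt (ENSMUSG00000021957.7, chr14:30548359-30574720, plus strand), a transketolase that links the pathway back to glycolysis, had 636, 651 and 622 CPM in stimulated KO cells, against 176, 167 and 159.9 CPM in resting KO cells, and 666, 702 and 677 CPM in stimulated WT cells, against 188, 166 and 177 CPM in resting WT cells. Tkt rose by 1.92 ± 0.06 in KO (adjusted p = 3.59e-12, edgeR) and 1.95 ± 0.06 in WT cells (adjusted p = 2.76e-12). Pgd, which releases the second NADPH and the carbon dioxide, rose by 1.52 ± 0.05 in KO and 1.50 ± 0.05 in WT cells. G6pdx, the entry enzyme of the oxidative arm, rose by 0.98 ± 0.06 in KO and 0.81 ± 0.06 in WT cells, and Pgls, the lactonase after it, by 0.35 ± 0.05 and 0.25 ± 0.05. H6pd, which runs the first steps inside the endoplasmic reticulum, fell by 0.98 ± 0.06 in KO and by 1.07 ± 0.06 in WT cells. Rpia and Rpe, the isomerase and epimerase of the pentoses, rose by 1.02 ± 0.05 and 0.80 ± 0.06 in KO and by 1.07 ± 0.05 and 0.90 ± 0.06 in WT cells. Taldo1 fell by 0.24 ± 0.08 in KO (adjusted p = 0.0143, edgeR) and by 0.34 ± 0.08 in WT cells (adjusted p = 0.00153), and the KO call was lost without resting KO replicate 2 or stimulated KO replicate 3, with adjusted p up to 0.0801. Without TMM scaling Pgls in KO cells was not called (log2 change 0.02, adjusted p = 0.622) and Pgls in WT cells turned to −0.09.

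Galk1 (ENSMUSG00000020766.4, chr11:116008457-116012719, minus strand), the galactokinase, had 121, 121 and 114 CPM in stimulated KO cells, against 10.8, 11.2 and 10.3 CPM in resting KO cells, and 134, 145 and 132 CPM in stimulated WT cells, against 10.9, 10.9 and 10.8 CPM in resting WT cells. Its log2 change was 3.46 ± 0.05 in KO (adjusted p = 5.81e-14, edgeR) and 3.66 ± 0.05 in WT cells (adjusted p = 4.09e-14). Pgm2, of the phosphoglucomutase family, rose by 0.28 ± 0.06 in KO and 0.48 ± 0.07 in WT cells, but without TMM scaling its log2 change in KO cells was −0.04.

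**Figure D3:**
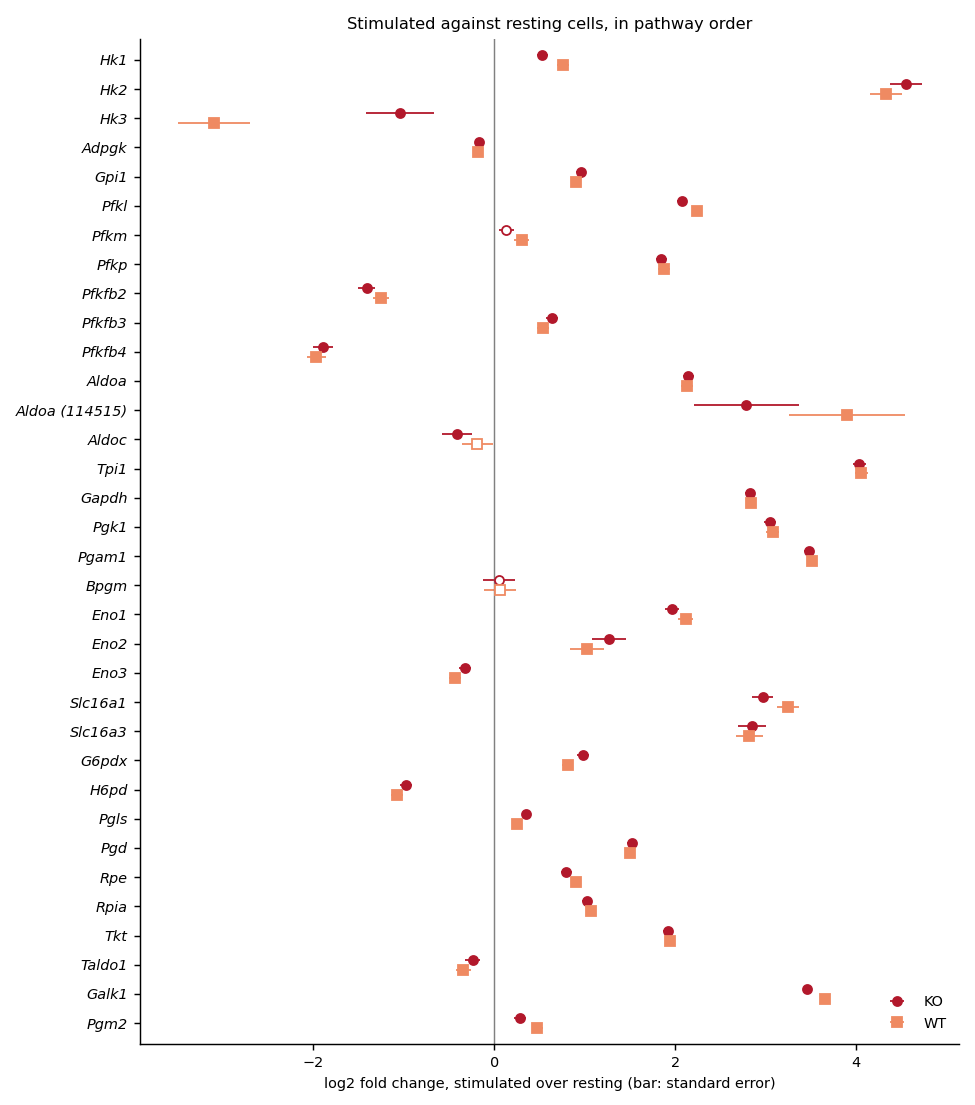
Log2 fold change of stimulated over resting cells, with its standard error, for the 34 rows in pathway order from top to bottom, in KO (circles) and WT cells (squares); filled symbols passed an adjusted p of 0.05. Hk2 (4.55 and 4.33) and Tpi1 (4.04 and 4.06) lie farthest right, and Hk3, Pfkfb4, Pfkfb2 and H6pd farthest left.

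Summed per step, the levels per length spread unevenly along the chain. The triosephosphate isomerase step was 16.4 times its resting sum in stimulated KO and 16.7 times in stimulated WT cells, the phosphoglycerate mutase step 9.50 and 9.81 times, and the lactate export step 7.74 and 9.08 times. The hexokinase step was 2.197 and 2.27 times its resting sum, with Hk1 at 16.98 of the 28.8 CPM per kb in resting KO and 16.1 of the 31.3 CPM per kb in resting WT cells, and the isomerase step of Gpi1 1.95 and 1.87 times. The sums of both arms of the pentose phosphate pathway stayed below that, at 1.77 and 1.70 times for the oxidative arm and 1.67 and 1.65 times for the non-oxidative arm. These folds use the union exon lengths, and in KO cells the order of the hexokinase step, Gpi1 and these arms depends on the length used. Each arm sums 4 genes of more than 1 reaction, with H6pd falling in the oxidative arm. In the other arm Taldo1, its highest member at rest, fell. Taken singly, Tkt (3.79-fold in KO, 3.85-fold in WT), Pgd (2.86 and 2.83) and Rpia (2.03 and 2.097) rose more than Gpi1. G6pdx did so only in KO cells (1.97 and 1.75), and Rpe and Pgls in neither genotype. Lactate export was the lowest of the 14 steps at rest, at 9.56 ± 2.01 CPM per kb in KO and 9.14 ± 0.180 in WT cells. After stimulation it stood at 74.0 ± 1.91 CPM per kb in KO and 83.0 ± 1.53 in WT cells.

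The mix of isoenzymes within a step was followed as the log2 ratio of their counts in each library, which does not depend on scaling. The libraries were permuted between conditions within each genotype (exact two-sided permutation test, 400 arrangements, Benjamini-Hochberg over 11 ratios). In this exact permutation test 10 of the 11 ratios had p = 0.005, the smallest the design allows, and an adjusted p of 0.0055. Hk2 over Hk1 was −0.21 ± 0.07 in stimulated KO and −4.23 ± 0.23 in resting KO cells, and −0.12 ± 0.09 in stimulated WT and −3.72 ± 0.52 in resting WT cells (SD, n = 3 each), a mean difference of 3.82. Per length Hk2 made up 54.1% of Hk1, Hk2 and Hk3 in stimulated KO and 6.27% in resting KO cells, and 56.3% in stimulated WT and 7.65% in resting WT cells. With the longest transcript as length Hk2 was at 39.5% in stimulated KO and 41.4% in stimulated WT cells, below Hk1, so which of the pair was higher after stimulation depends on the length used.

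Hk3 over Hk1 differed by −1.58 between stimulated and resting KO cells and by −3.80 between stimulated and resting WT cells, a mean of −2.69, beside the myeloid sums given above. For phosphofructokinase, Pfkm over Pfkl differed by −1.94 and Pfkp over Pfkl by −0.30. Pfkfb3 over Pfkfb2 differed by 1.92, and Pfkfb3 made up 88.0% of the 3 Pfkfb genes per length in stimulated KO and 59.8% in resting KO cells, and 87.7% in stimulated WT and 61.1% in resting WT cells. Pfkfb4 over Pfkfb2 differed by −0.60. Eno3 over Eno1 differed by −2.43 and Eno2 over Eno1 by −0.88, and Aldoc over Aldoa by −2.44. In the oxidative pentose phosphate arm H6pd over G6pdx differed by −1.92, and H6pd made up 14.2% of the pair per length in stimulated KO and 39.0% in resting KO cells, and 13.2% in stimulated WT and 36.1% in resting WT cells.

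The proportion of the lactate carriers differed least of the 11. Slc16a3 over Slc16a1 was −2.62 ± 0.12 in stimulated KO and −2.49 ± 0.09 in resting KO cells, and −2.50 ± 0.16 in stimulated WT and −2.08 ± 0.32 in resting WT cells (SD, n = 3 each). The difference of −0.27 had an exact permutation p of 0.045, also 0.045 after adjustment. Leaving out any 1 of 9 of the 12 libraries (all but stimulated KO replicate 2, resting KO replicate 1 and resting WT replicate 3) gave an adjusted p of 0.06 to 0.12 and differences of −0.20 to −0.30. Between genotypes, 3 libraries against 3 cannot reach p under 0.05 in this test, so the ratios of KO and WT cells are given as values. In stimulated cells the KO minus WT difference was −0.09 for Hk2 over Hk1 and 1.177 for Hk3 over Hk1, and for the other 9 ratios it lay between −0.13 and 0.30. At rest it was −0.51 for Hk2 over Hk1, −1.05 for Hk3 over Hk1, the opposite sign to that in stimulated cells, and between −0.41 and 0.19 for the other 9.

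**Figure D4:**
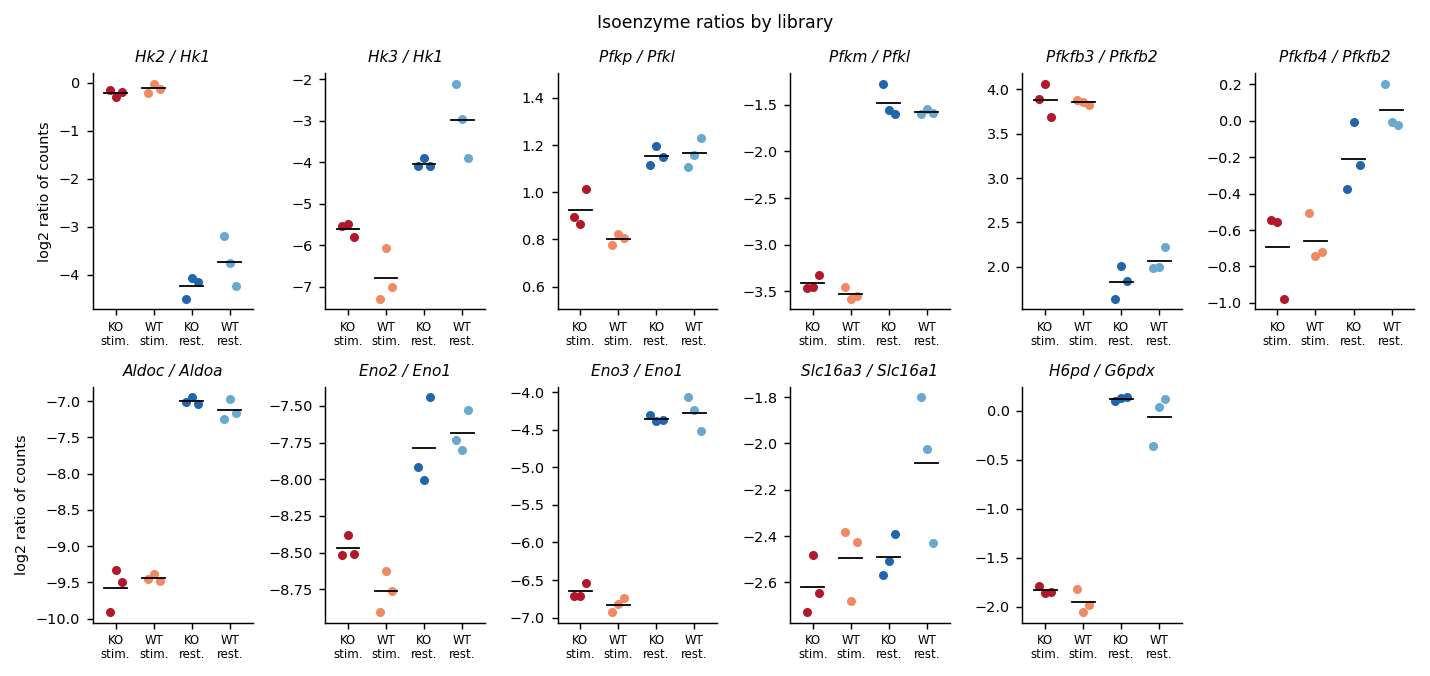
Log2 ratios of the counts of 2 isoenzymes for 11 pairs, with 1 point per library and a bar at the mean, in stimulated KO, stimulated WT, resting KO and resting WT cells; each panel has its own vertical scale. Hk2 over Hk1 lies near 0 after stimulation (−0.21 in KO, −0.12 in WT) and near −4 at rest, while Slc16a3 over Slc16a1 overlaps between the conditions.

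Promoter windows of the members, 250 bases before to 50 after a start site, were read from RefSeq (GRCm38.p6), where all 33 genes had at least 1 window. They were searched on both strands for ACGTG, the core of the hypoxia response element, and for CACGTG, the E-box bound by Myc and related factors, which holds ACGTG once on each strand. Any window of a gene with a match counted for the gene. ACGTG was in 17 of the 33 genes (51.5%) and in 21.8% of the 27025 genes of the table. CACGTG was in 5 of the 33 (15.2%; Galk1, Pfkfb2, Pfkfb3, Pfkm and Slc16a1) and in 8.09% of all genes. A gene with more windows has more places for a match. Counted by window, ACGTG was in 21 of the members' 46 windows and in 19.6% of all 32851 windows. CACGTG was in 5 of the 46 and in 7.15% of all windows. A match is a run of letters and no evidence of binding. Of the 5 genes with CACGTG, Pfkfb2 fell after stimulation and Pfkm was called higher in WT cells and not in KO cells, where the test of the difference made no call. The windows of 4 genes that rose after stimulation are shown because they span the cases: Slc16a1 and Galk1 hold CACGTG, Slc16a1 also a separate ACGTG, Hk2 holds CACGT at 2 places, and Tpi1, with the largest change after Hk2, holds neither. Capitals mark the E-box, the shorter core and the reverse complement of that core. The windows are Slc16a1 at chr3:104638414-104638713 (plus strand), Galk1 at chr11:116012670-116012969 (minus strand), Hk2 at chr6:82774405-82774704 (minus strand) and Tpi1 at chr6:124814109-124814408 (minus strand), each written 5′ to 3′ on the gene's strand.
Slc16a1: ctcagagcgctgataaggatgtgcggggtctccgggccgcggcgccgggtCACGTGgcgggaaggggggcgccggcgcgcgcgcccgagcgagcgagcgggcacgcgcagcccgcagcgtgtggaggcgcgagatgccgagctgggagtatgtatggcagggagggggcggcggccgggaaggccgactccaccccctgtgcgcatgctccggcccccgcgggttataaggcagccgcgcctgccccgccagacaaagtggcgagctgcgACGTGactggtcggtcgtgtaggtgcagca
Galk1: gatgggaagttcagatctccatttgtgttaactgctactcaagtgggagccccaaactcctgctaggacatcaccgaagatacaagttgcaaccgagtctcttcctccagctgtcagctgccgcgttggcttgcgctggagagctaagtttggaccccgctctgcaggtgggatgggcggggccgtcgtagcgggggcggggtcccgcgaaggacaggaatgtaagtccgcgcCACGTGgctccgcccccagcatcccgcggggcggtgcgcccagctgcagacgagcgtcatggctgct
Hk2: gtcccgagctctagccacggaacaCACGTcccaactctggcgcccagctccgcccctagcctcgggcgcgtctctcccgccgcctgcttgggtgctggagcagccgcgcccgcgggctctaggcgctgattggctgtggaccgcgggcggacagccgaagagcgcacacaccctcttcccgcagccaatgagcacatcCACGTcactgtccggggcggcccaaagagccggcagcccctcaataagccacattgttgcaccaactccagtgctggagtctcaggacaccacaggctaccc
Tpi1: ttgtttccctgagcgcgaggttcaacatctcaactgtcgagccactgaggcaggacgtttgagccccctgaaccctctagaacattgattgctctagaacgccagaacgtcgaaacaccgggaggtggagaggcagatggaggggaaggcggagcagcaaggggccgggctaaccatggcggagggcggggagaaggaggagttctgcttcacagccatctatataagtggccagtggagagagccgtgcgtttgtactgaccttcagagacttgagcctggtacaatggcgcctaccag

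KO cells were set against WT cells after stimulation. None of the 34 rows was called higher and 8 were called lower, against 3.37% of 15090 tested genes higher and 1.4% lower. All 8 differences were small, between 0.13 and 0.23 on the log2 scale. The KO libraries all lay below the WT libraries for 16 rows, against 14.6% of the tested genes, and all above for 1, against 13.4%. The log2 difference was below 0 for 27 of the 34 rows, with a median of −0.07 beside −0.000162 over all genes. By role, 6 of the 24 rows of glycolysis and lactate export were lower, 1 of the 8 pentose phosphate genes and 1 of the 2 hexose entry genes.

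Hk2 had the largest difference of the 8. Its 188, 173 and 182 CPM in stimulated KO cells lay below 208, 219 and 214 CPM in stimulated WT cells, a log2 difference of −0.23 ± 0.03 (adjusted p = 0.00787, edgeR). Galk1 had 121, 121 and 114 CPM in KO and 134, 145 and 132 CPM in WT cells, a difference of −0.21 ± 0.04 (adjusted p = 0.0222). In both genes every KO library was below every WT library. Pgam1 had 724, 738 and 721 CPM in KO and 825, 794 and 832 CPM in WT cells (−0.16 ± 0.03, adjusted p = 0.0201), and Tpi1 681, 717 and 668 CPM in KO and 773, 749 and 793 CPM in WT cells (−0.16 ± 0.04, adjusted p = 0.0405). Pgd had 232, 233 and 222 CPM in KO and 252, 262 and 252 CPM in WT cells (−0.15 ± 0.03, adjusted p = 0.0270). Here too the groups did not overlap. Slc16a1 had 298, 286 and 281 CPM in KO and 313, 321 and 325 CPM in WT cells (−0.14 ± 0.03, adjusted p = 0.0337). Eno1 averaged 1770 ± 36.4 CPM in KO and 1958 ± 25.0 CPM in WT cells (−0.14 ± 0.03, adjusted p = 0.0261), and Pgk1 1098 ± 25.8 CPM in KO and 1211 ± 3.72 CPM in WT cells (−0.13 ± 0.03, adjusted p = 0.0300).

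These calls depended on single libraries and, for Slc16a1 and Tpi1, on the scaling: without TMM scaling both missed the threshold (adjusted p = 0.0518 and 0.0645, edgeR). The number of members called lower was 1, 0 and 1 without stimulated KO replicate 1, 2 or 3. It was 5, 14 and 2 without stimulated WT replicate 1, 2 or 3. Lower calls over all tested genes moved as well, from 211 in the main fit to 36, 18 and 33 without stimulated KO replicate 1, 2 or 3. They numbered 127, 491 and 79 without stimulated WT replicate 1, 2 or 3. The log2 difference of each of the 8 members stayed below 0 in all 6 fits. Hk2 was called in 5 of the 6 and missed only without stimulated KO replicate 2 (adjusted p = 0.0509). A DESeq2 Wald test called 14 members lower, beside 432 of 25072 genes. A fit of all 12 libraries together called 1, Galk1, beside 28 of 17460 genes lower. Markers of other cells differed between the same libraries: the 6 B cell markers summed to 301 ± 23.9 CPM in stimulated KO and 178 ± 47.8 CPM in stimulated WT cells (SD, n = 3 each) with none of the 6 called, and 5 of the 8 myeloid markers were called higher in KO, with sums of 26.5 to 30.4 CPM in KO and 10.8 to 20.8 CPM in WT. The 2 CD8 T cell markers summed to 34.5 ± 2.45 CPM in stimulated KO and 20.97 ± 3.43 CPM in stimulated WT cells (SD, n = 3 each). Of these, Cd8b1 was called higher in KO (0.67 ± 0.08, adjusted p = 0.00289, edgeR) and Cd8a was not (0.84 ± 0.19, adjusted p = 0.0643). None of the 6 B cell, 8 myeloid and 2 CD8 T cell markers was at 0 in all libraries of either group. Their part in the members' differences was not tested.

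A further 8 rows had an unadjusted p under 0.05 and missed the threshold, and were named after their values were seen. With the 8 called rows, an unadjusted p under 0.05 was found for 16 of the 34 rows and for 20.6% of the tested genes. Hk1 (−0.14 ± 0.04, adjusted p = 0.0541, edgeR), Gapdh (−0.11 ± 0.03, 0.0574), Aldoa (−0.11 ± 0.03, 0.0666) and Pfkl (−0.16 ± 0.04, 0.0698) came nearest. Each of these 4 was called without stimulated WT replicate 2. So were Slc16a3, Gpi1 and Hk3 of this set (adjusted p = 0.00644, 0.0444 and 0.000331, edgeR), but not Tkt. Slc16a3 (−0.27 ± 0.09, adjusted p = 0.136), Tkt (−0.09 ± 0.03, 0.121) and Gpi1 (−0.07 ± 0.03, 0.187) were also below 0. Hk3 was the one above 0, at 0.97 ± 0.27 (adjusted p = 0.0950), with KO libraries at 3.70 to 4.74 CPM and WT libraries at 1.54 to 3.30 CPM, beside the higher myeloid sums in KO. Among the pentose phosphate genes G6pdx (−0.00 ± 0.03), Rpia (−0.00 ± 0.04) and Taldo1 (−0.01 ± 0.04) differed by less than their standard error.

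**Figure D5:**
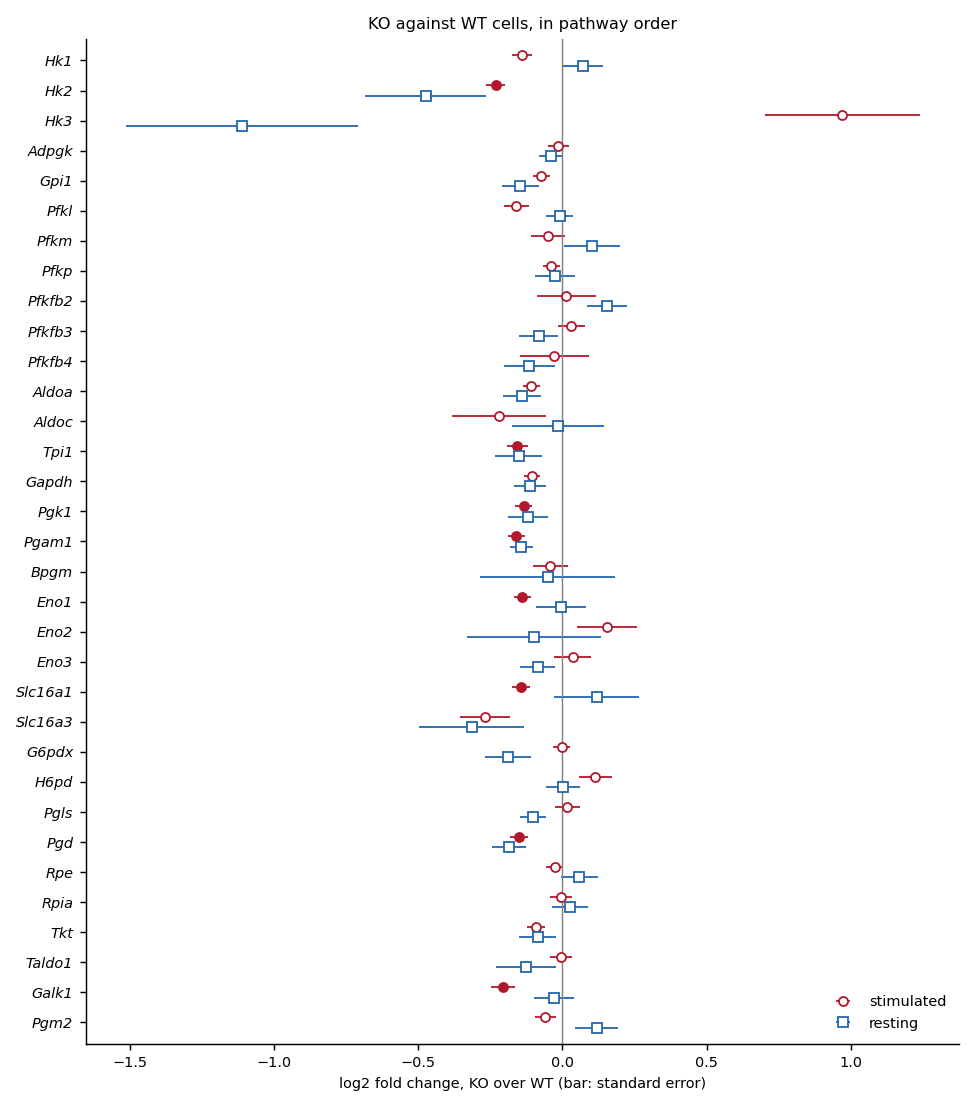
Log2 fold change of KO over WT cells, with its standard error, for the 33 rows tested in both conditions, in pathway order from top to bottom, in stimulated (circles) and resting cells (squares); filled symbols passed an adjusted p of 0.05. The 8 filled circles lie between −0.23 and −0.13, and no square is filled.

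At rest, no difference between KO and WT cells was detectable in these genes with 3 libraries a group. None of 33 rows was called by edgeR, against 0.0361% of 16637 tested genes, and none by DESeq2. An unadjusted p under 0.05 was found for 4 of the 33 rows and for 13.7% of the tested genes. The second Aldoa row did not pass the filter at rest. The smallest adjusted p was 0.296, for Pgam1, which had 62.9, 66.2 and 67.4 CPM in KO and 72.6, 70.1 and 72.7 CPM in WT cells (−0.14 ± 0.04). Pgd followed with 77.9, 81.1 and 80.9 CPM in KO and 96.9, 83.7 and 90.3 CPM in WT cells (−0.18 ± 0.06, adjusted p = 0.309, edgeR). In both genes the KO libraries lay below the WT libraries, as they did for 7 of the 33 rows, against 10% of the tested genes, while they lay above for 1, against 9.86%. Hk3 (−1.11 ± 0.40), G6pdx (−0.19 ± 0.08) and Gpi1 (−0.15 ± 0.06) had the next smallest p, with adjusted p of 0.345, 0.357 and 0.380. The log2 difference was below 0 for 25 of the 33 rows, with a median of −0.09 beside 0.01 over all genes. All 8 myeloid markers were below 0 as well, with a median of −0.95, and none of the 8 was called. Resting WT replicate 1, the library with the highest myeloid sum (1942 CPM), was the highest of the 6 resting libraries in Hk3 (29.4 CPM), Pgd (96.9 CPM) and G6pdx (59.0 CPM), though not in Gpi1 or Pgam1. The part of other cells in these values was not tested.

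The size of the response was then compared between genotypes, as the KO response minus the WT response. None of the 34 rows was called by edgeR, against 0.693% of 17460 tested genes. An unadjusted p under 0.05 was found for 4 of the 34 rows and for 15.9% of the tested genes. DESeq2 called 1, Hk3. For Hk3 the difference was 2.06 ± 0.53 (adjusted p = 0.116, edgeR), from responses of −1.04 in KO and −3.10 in WT cells, beside the myeloid sums given above. Galk1 (−0.20 ± 0.07, adjusted p = 0.190), Hk1 (−0.23 ± 0.09, 0.225), Pfkl (−0.17 ± 0.07, 0.295) and Pgm2 (−0.19 ± 0.09, 0.333) had negative differences that missed the threshold. Without resting WT replicate 3, the resting WT library lowest in myeloid markers, Hk3 was called higher (adjusted p = 0.0142) and Hk1 (0.0275), Pgm2 (0.0319) and Eno1 (0.0431) were called lower. Over all genes that fit called 905 higher and 741 lower, beside 97 and 24 in the main fit. For Tpi1 (−0.02 ± 0.09), Gapdh (−0.01 ± 0.07), Pgam1 (−0.03 ± 0.06) and Pgk1 (−0.03 ± 0.09) the difference was smaller than its standard error.

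A list of 32 further genes of hexose and pentose metabolism that are no members was counted in the same fits. Of the 24 that passed the filter, 17 were higher and 6 lower after stimulation in KO cells, against 39.6% and 43.2% of all tested genes. In WT cells 17 were higher and 6 lower, against 39.3% and 44.8%. Between KO and WT cells, 4 of 22 were lower and none higher after stimulation, against 1.4% and 3.37% of all tested genes. The 4 were Pkm, the targeted gene itself, and Slc2a1, Bsg and Ldha, which were named after their values were seen. At rest 1 of 24, Pkm, was lower, against 0.0361% of all tested genes called in either direction. The difference of the responses was called for none of the 24, against 0.693% of all tested genes.

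Some members share sequence with other rows, which limits how exactly their counts can be assigned. Near-identical copies (at least 95% identity) had summed counts of 3.16% to 4.72% of Pgk1, 2.54% to 3.21% of Gapdh, 0.729% to 1.33% of Eno1 and 0.168% to 0.755% of Pgam1, depending on the library. The copies of Pgk1 come nearest in size to a called difference, its change of −8.88% between stimulated KO and WT cells, which is uncertain in that respect. Exons of Pfkm, Pfkfb2, G6pdx, Pfkp, Hk3, Rpe, Adpgk and Gapdh overlap exons of another gene with counts on the opposite strand, with Senp1 and Yod1 having more counts than Pfkm and Pfkfb2,, and those of Pgls overlap Fam129c on the same strand. The use of strand in counting is stated in none of the sources read here, so these counts are uncertain to that extent.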

How the data were processed

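Polyadenylated RNA from 12 libraries in 4 groups of 3 was analysed at the level of genes. The authors deposited RSEM expected counts, 1 table for resting and 1 for stimulated cells; RSEM 1.3.1, STAR 2.7.0f, cutadapt 1.18, bcl2fastq 2.20 and mm10 appear in the submitters' processing notes. Whole numbers were made from these expected counts by rounding. The results give the library totals.

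KO and WT cells were compared within each condition on 6 libraries, and the responses and their difference in 1 fit of 4 group means over 12 libraries. Each test was edgeR's quasi-likelihood F-test (robust, TMM scaling, filterByExpr with a minimum count of 10 and total of 15; R 4.3.3, edgeR 4.0.16, limma 3.58.1), with Benjamini-Hochberg adjustment over all genes tested and a threshold of 0.05. The fits were also run on simulated counts. The changes planted there were larger than any member difference called between stimulated KO and WT cells, so that run does not cover differences of that size. CPM uses the TMM-scaled library size of the 12-library fit. Levels per length divide CPM by the union of GENCODE M21 exons, an approximation, since the effective length of the expressed transcripts is unknown. Ratios of isoenzymes add 0.5 counts to each gene.

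The members were listed by symbol and not by value, but they and the lists of other genes were chosen with earlier results of these data known. Full statistics are given for members past the threshold or, where under 5 passed, for the 5 with the smallest p. Where more than 12 passed, they are given for 12 leading members, the one with the largest fold change in a step, leaving out the steps with the smallest changes. Other members have their change and its error, and those singled out after their values were seen are named as such.

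Alternatives were DESeq2 1.42.0, DESeq2 size factors, unscaled totals, other filters, other sets of libraries, a replicate block, other lengths and priors. No pair of replicates agreed within counting error, so no libraries were merged, which does not show that they are independent samples.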

Additional observations from a re-analysis of the deposited data

How the results depend on the processing

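The counts of calls between KO and WT cells varied most with the choices made, and the cause was not tested. For stimulated KO against WT cells, a DESeq2 Wald test called 15 members (1 higher, Hk3, and 14 lower), and all 12 libraries in 1 fit called 1 (1 lower). Leaving out 1 library at a time gave 0 to 15 calls (0 to 1 higher, 0 to 14 lower). Calls over all genes moved too, from 508 higher and 211 lower in the main fit. They became 709 and 432 with DESeq2 and 191 and 28 in 1 fit. With 1 library left out they were 110 to 917 higher and 18 to 491 lower. For the difference of the responses DESeq2 called 1 (1 higher), and leaving out 1 library gave 0 to 4 (0 to 1 higher, 0 to 3 lower). Over all genes DESeq2 called 611 higher and 341 lower for that difference. Leaving out 1 library gave 24 to 905 higher and 2 to 741 lower. The lower calls of stimulated against resting KO cells numbered 5 to 8 when 1 library was left out, and 7235 to 7772 over all genes. The log2 ratio of Slc16a3 to Slc16a1 lay between −0.36 and −0.20 when 1 library was left out and was −0.22 without replicate 1 of both resting groups (adjusted exact permutation p = 0.09).

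Without TMM scaling the direction turned in KO cells for Pgm2 (−0.043), Pfkm (−0.20) and Bpgm (−0.28), and in WT cells for Pgls (−0.091), Pfkm (−0.035) and Bpgm (−0.29). Bpgm, which was not called, turned to −0.0046 in WT cells with a filter of 1 CPM, and lay between −0.069 and 0.25 in KO and between −0.048 and 0.28 in WT cells when 1 library was left out, with −0.022 without resting WT replicate 2 and −0.0011 without stimulated WT replicate 3. Aldoc in KO cells was also not called from the 6 KO libraries alone (adjusted p = 0.0527) or without the filter (0.0676).

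The median level of the rows (main values 24.1 CPM per kb in stimulated KO, 25.7 in stimulated WT, 9.26 in resting KO and 9.21 in resting WT cells) became 21.7, 22.7, 10.5 and 10.3 with unscaled totals. With the longest transcript as length it became 29.9, 31.2, 13.7 and 14.4, and with the APPRIS principal transcript, a length chosen after seeing the data, 39.5, 41.8, 14.9 and 14.96. DESeq2 size factors gave 23.8 CPM per kb in stimulated KO cells.

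The replicate numbers were not used to pair the libraries in the main fits. Deviations from the group means of same-numbered libraries correlated at −0.03, 0.01 and 0.02 between stimulated KO and WT cells. At rest they correlated at 0.33, −0.11 and 0.27, and differently numbered resting KO and WT libraries at −0.39 to 0.25. Whether resting libraries of the same number belong together was not tested. With the replicate block, 1 member was called higher (Hk3) and 9 lower in stimulated KO cells. Over all 15090 genes that fit called 701 higher and 296 lower, beside 508 and 211 in the main fit. No other count of members called moved by more than 1.5 times. The Slc16a3 to Slc16a1 ratio kept its difference of −0.27, with an adjusted p of 0.125 in an exact sign-flip test. That test paired stimulated and resting libraries of the same number within a genotype. The labels do not state such a pairing, and the paired libraries differed in their sex-linked transcripts. Depth limits the second Aldoa row, at 1 to 7 counts in the resting libraries.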

Other observations

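Among the neighbouring genes of hexose and pentose metabolism, the following were named after their values were seen, with log2 changes of stimulated over resting cells from the same fits. Prps1, which makes phosphoribosyl pyrophosphate from ribose 5-phosphate, rose by 2.39 in KO and 2.52 in WT cells. Tigar, a fructose 2,6-bisphosphatase, rose by 1.42 in KO and 1.53 in WT cells, and Pgm1, a phosphoglucomutase, by 1.32 and 1.29. Shpk, which makes sedoheptulose 7-phosphate, changed by −1.66 in KO and −1.81 in WT cells, and Khk, the fructokinase, by −1.86 and −2.20. Of the glucose transporters Slc2a1 rose by 1.65 in KO and 1.86 in WT cells, while Slc2a3 changed by −0.80 and −0.66.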
